A study of Mus musculus with 12 samples.

Results

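The dual-specificity MAP kinase phosphatases are a family of enzymes that switch off MAP kinases, and 10 of their genes (Dusp1, Dusp2, Dusp4, Dusp5, Dusp6, Dusp7, Dusp8, Dusp10, Dusp14 and Dusp16) were followed in hippocampal slices after induction of chemical long-term potentiation. They were taken by name from the 41091 gene IDs of the count tables, with symbols assigned from GENCODE M21, and all 10 were found and passed the filter on low counts in every comparison. In these slices 4 of the 10 (Dusp1, Dusp4, Dusp5 and Dusp6) were called higher 1 hr after induction, beside 0.778% of all genes, and the same 4 at 3 hr, beside 5.07%. The calls of Dusp4 at both times and of Dusp1 at 3 hr were lost under some alternatives, and 2 members remained called at 3 hr at an adjusted p under 0.05.

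MAP kinases (ERK, JNK and p38) are active only while a threonine and a tyrosine in their activation loop both carry phosphate. Dual-specificity phosphatases remove both groups. Several of their genes are themselves transcribed in response to ERK activity or to cyclic AMP and calcium, so that a burst of kinase signaling is followed by new phosphatase, and ERK signaling in hippocampal neurons is required for lasting forms of long-term potentiation (LTP). The family differs by place and substrate: Dusp1, Dusp2, Dusp4 and Dusp5 encode nuclear enzymes, Dusp6 and Dusp7 cytoplasmic enzymes selective for ERK, Dusp8, Dusp10 and Dusp16 enzymes that prefer JNK and p38, and Dusp14 a small atypical enzyme without the kinase-binding domain of the others.

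The slices came from wild-type C57BL/6 mice 2 to 3 months old (males, per the study's methods), and the dentate gyrus had been trimmed from them. LTP slices received 50 uM forskolin, which activates adenylyl cyclase, for 5 min, and KCl (30 mM) and calcium (10 mM) were then added to the forskolin until 10 min had passed. Control slices received 0.2% DMSO for the same 10 min. Slices were frozen 1 hr or 3 hr later, which gave control and LTP groups at both times with 3 libraries each. The control and LTP slices of a given replicate number at a time point came from 1 animal. According to the methods, libraries were made only from samples in which qPCR had shown a rise of Arc and of the short Homer1 transcript, so the LTP slices were selected for a transcriptional response. Forskolin itself raises cyclic AMP, and no group received forskolin without KCl and calcium.

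Library totals ran from 37118382 to 50815001 counts. 1 hr control replicate 2 was set aside by the study as an outlier of its clustering and is left out of the fits below, which leaves 2 controls against 3 LTP libraries at 1 hr. Between this library and the other 1 hr controls the chi-square per degree of freedom of the counts was 47.0 and 63.3, against 10.2 between the other two. 3 hr LTP replicate 3 also stood apart from replicates 1 and 2 (44.0 and 85.6, against 24.1). The summed level of 4 excitatory neuron markers was 3740 CPM (counts scaled to library size) in that library, against 2390 and 3060 CPM in the other 3 hr LTP libraries and 2710 to 2800 CPM in the 3 hr controls. Markers of dentate granule cells were still present although the dentate gyrus had been trimmed, with Prox1 at 45.9 to 79.8 CPM. The summed level of 5 such markers was 210 to 222 CPM in 1 hr controls and 162 to 258 CPM in 1 hr LTP slices. At 3 hr it was 187 to 224 CPM in controls and 176 to 293 CPM in LTP slices. The part of this spread in the results was not tested.

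The region just upstream of the start site was read for members whose transcripts rose together, because forskolin acts through cyclic AMP and the transcription factor CREB binds the cyclic AMP response element (CRE, TGACGTCA). RefSeq (GRCm38.p6) held a window for 9 of the members (all except Dusp4), and the 250 bases before the start were searched on both strands. The search covered the CRE, its core (TGACG, which every CRE also contains) and the CArG box bound by serum response factor. The CArG box was added after the sequences had been seen. Of 32851 windows of this length across RefSeq genes, 1.55% held a CRE, 17.8% a core and 1.47% a CArG box. The stretches below are given 5′ to 3′ on the strand of the gene, with matches in capitals. Those of Dusp1 and Dusp5 are shown because they held matches and their genes were called higher after LTP induction (Dusp6, also called, held none), and that of Dusp8 because it held a CRE pair while the transcript was called at neither time. The Dusp1 stretch is chr17:26508596-26508675 on the minus strand, 203 to 124 bases before the start. The Dusp5 stretch is chr19:53529051-53529106 on the plus strand, 94 to 39 bases before the start. The Dusp8 stretch is chr7:142095328-142095403 on the minus strand, 119 to 44 bases before the start. These distances are from the RefSeq start in the table, which is not the only annotated start: the GENCODE genes of Dusp1 and Dusp8 begin farther upstream, so both stretches lie inside the annotated gene, outside its exons. The Dusp5 stretch lies before the annotated gene but within an exon of AC137853.2 on the opposite strand, and the Dusp14 window is partly exonic.
Dusp1: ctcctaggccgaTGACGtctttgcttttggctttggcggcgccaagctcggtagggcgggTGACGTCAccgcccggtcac
Dusp5: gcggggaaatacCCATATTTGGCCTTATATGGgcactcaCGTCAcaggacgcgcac
Dusp8: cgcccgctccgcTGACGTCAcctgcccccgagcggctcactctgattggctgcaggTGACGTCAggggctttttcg

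Dusp1 held 1 CRE and a separate core, and Dusp8 held 2 CREs. Dusp5 held 2 CArG boxes directly next to each other and 1 core on the opposite strand, and no full CRE. Dusp16 held 1 core. In the windows of Dusp2, Dusp6, Dusp7, Dusp10 and Dusp14 these letters did not occur. A match is a description of the letters in this window.

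In control slices the members differed widely in level. Levels between genes are compared as TMM-scaled CPM per kilobase of merged exons. The study took reads in coding regions for its expression analysis, and it is not stated whether the deposited counts are limited to these. If they are, levels per exonic kilobase understate genes with long untranslated regions. Dusp6 was the most abundant in all 4 groups, at 39.9 ± 1.48 CPM per kb in 3 hr controls (SD, n = 3), which was 2.18 times the level of the next gene, Dusp8 (18.3 ± 1.22). Dusp8, Dusp7 (18.0 ± 1.17), Dusp4 (17.5 ± 0.688) and Dusp14 (16.3 ± 1.10) followed, and the ranges of neighbours in this order overlapped, so their order is not resolved. Dusp5 lay lower at 13.0 ± 0.880 CPM per kb, apart from its neighbours on this scale. Per kilobase of the longest transcript, Dusp1 (13.2 to 14.3) overlapped Dusp5 (12.2 to 13.9) and Dusp14 took the second place at 20.2, so the order below Dusp6 depends on the length used. Dusp10 (10.5 ± 1.02) and Dusp1 (9.66 ± 0.408) overlapped each other. Dusp2 (3.51 ± 0.482) and Dusp16 (3.07 ± 0.214) were lowest and overlapped. In 1 hr controls the top and the bottom of the order were Dusp6 (43.2 ± 5.22, SD, n = 2) and Dusp2 (1.10 ± 0.421).

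**Figure D1:**
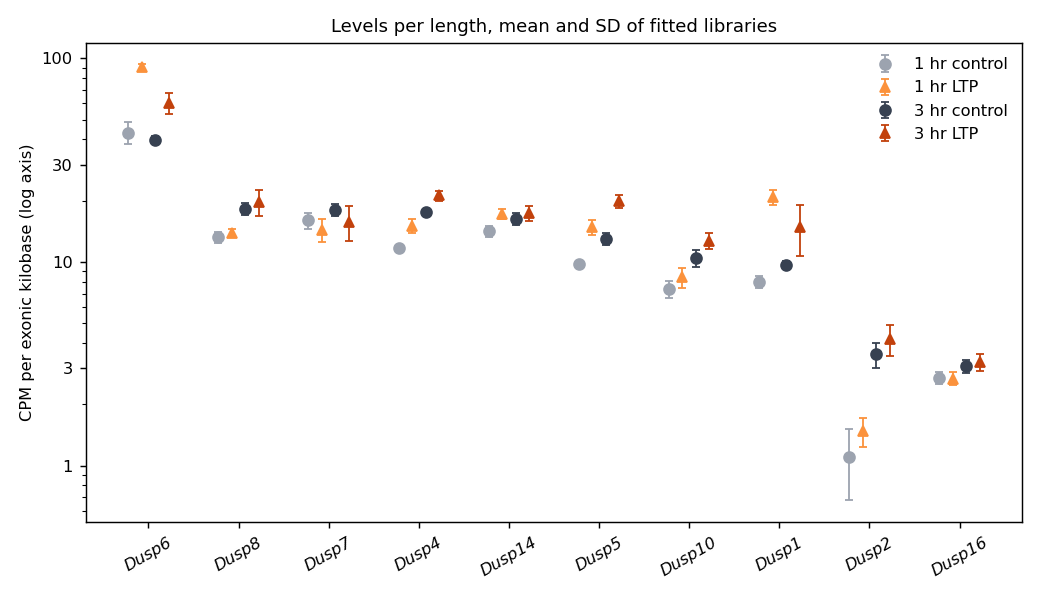
Level of each gene per exonic kilobase (TMM-scaled CPM per kb, log axis) in the 4 groups, with the mean and SD of the fitted libraries (2 for 1 hr controls, 3 for the others). Dusp6 is highest in every group and Dusp2 and Dusp16 are lowest; Dusp1 is in seventh place in 1 hr controls and second in 1 hr LTP slices.

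The comparison of LTP with control slices at 1 hr asked which phosphatase transcripts responded early. A gene was called when its fold change was over 1.2 and its Benjamini-Hochberg adjusted p under 0.1 in the edgeR quasi-likelihood test over all 17736 genes tested. By this rule 0.778% of all genes were called higher and 0.0113% lower, while 4 of the 10 members were called higher and 0 lower. At an unadjusted p under 0.05 there were 5 of 10 members, all higher in LTP slices, and 6.71% of all genes. The median log2 difference was 0.33 over the 10 members and 0.00 over all genes (-0.001). In bulk slices, a change in the number of cells that express a gene cannot be told apart from a change in RNA per cell. The summed level of endothelial and mural markers was 105 to 111 CPM in the 1 hr controls, the set-aside one included. In 1 hr LTP slices it was 87.1 to 94.4 CPM. For the other marker lists the ranges of the 1 hr groups overlapped. The part of cell composition in these results was not tested.

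Dusp1 (ENSMUSG00000024190, chromosome 17, 26505590 to 26562128, minus strand) encodes a nuclear immediate-early phosphatase of p38, JNK and ERK. Its level at 1 hr was 27.6 and 25.2 CPM in the fitted controls, 30.4 CPM in the control that was set aside, and 70.9, 62.6 and 73.7 CPM in LTP replicates 1, 2 and 3. Every LTP library was above every control library, the set-aside one included. Dusp1 rose by 1.40 on the log2 scale (SE 0.0904, 2.64-fold, adjusted p 4.4e-07, edgeR quasi-likelihood test), and it kept its call under all 19 alternatives.

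Dusp6 (ENSMUSG00000019960, chromosome 10, 99263231 to 99267489, plus strand) encodes the cytoplasmic phosphatase of ERK that is used widely as a readout of ERK activity. It had 124 and 147 CPM in the fitted 1 hr controls, 140 CPM in the set-aside control, and 272, 283 and 292 CPM in the LTP libraries. The groups were far apart and the LTP libraries close together. The log2 difference was 1.07 (SE 0.0796, 2.10-fold, adjusted p 1.74e-06, edgeR quasi-likelihood test), kept under all 19 alternatives. On the level scale per kilobase, Dusp6 reached 90.1 ± 3.12 CPM per kb in 1 hr LTP slices, 4.32 times the next gene, which was now Dusp1.

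Dusp5 (ENSMUSG00000034765, chromosome 19, 53529109 to 53542431, plus strand) encodes a nuclear phosphatase selective for ERK. It had 23.9 and 24.3 CPM in the fitted controls, 27.8 CPM in the set-aside control, and 39.0, 33.0 and 38.1 CPM in the LTP libraries. All LTP libraries were higher, with replicate 2 nearest to the controls. The log2 difference was 0.62 (SE 0.0903, 1.53-fold, adjusted p 0.00281, edgeR quasi-likelihood test), kept under all 19 alternatives. Antisense gene AC137853.2 covers 22.1% of the exonic bases of Dusp5, and the use of strand in counting is not stated, so its reads within the Dusp5 value cannot be told apart.

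Dusp4 (ENSMUSG00000031530, chromosome 8, 34807297 to 34819894, plus strand), a nuclear phosphatase close to Dusp1 in sequence, changed least of the 4. It had 31.8 and 32.6 CPM in the fitted controls and 44.3, 37.9 and 41.8 CPM in the LTP libraries. The control that was set aside had 39.7 CPM, within the LTP range, so the groups overlap once it is counted. The log2 difference was 0.37 (SE 0.0849, 1.29-fold, adjusted p 0.085, edgeR quasi-likelihood test). The call was lost under 7 of 19 alternatives: with all 6 libraries the log2 difference was 0.26 (adjusted p 0.485), and leaving out 1 hr control replicate 1, control replicate 3 or LTP replicate 1 gave 0.35, 0.39 and 0.32 (adjusted p 0.70, 0.514 and 0.498).

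**Figure D2:**
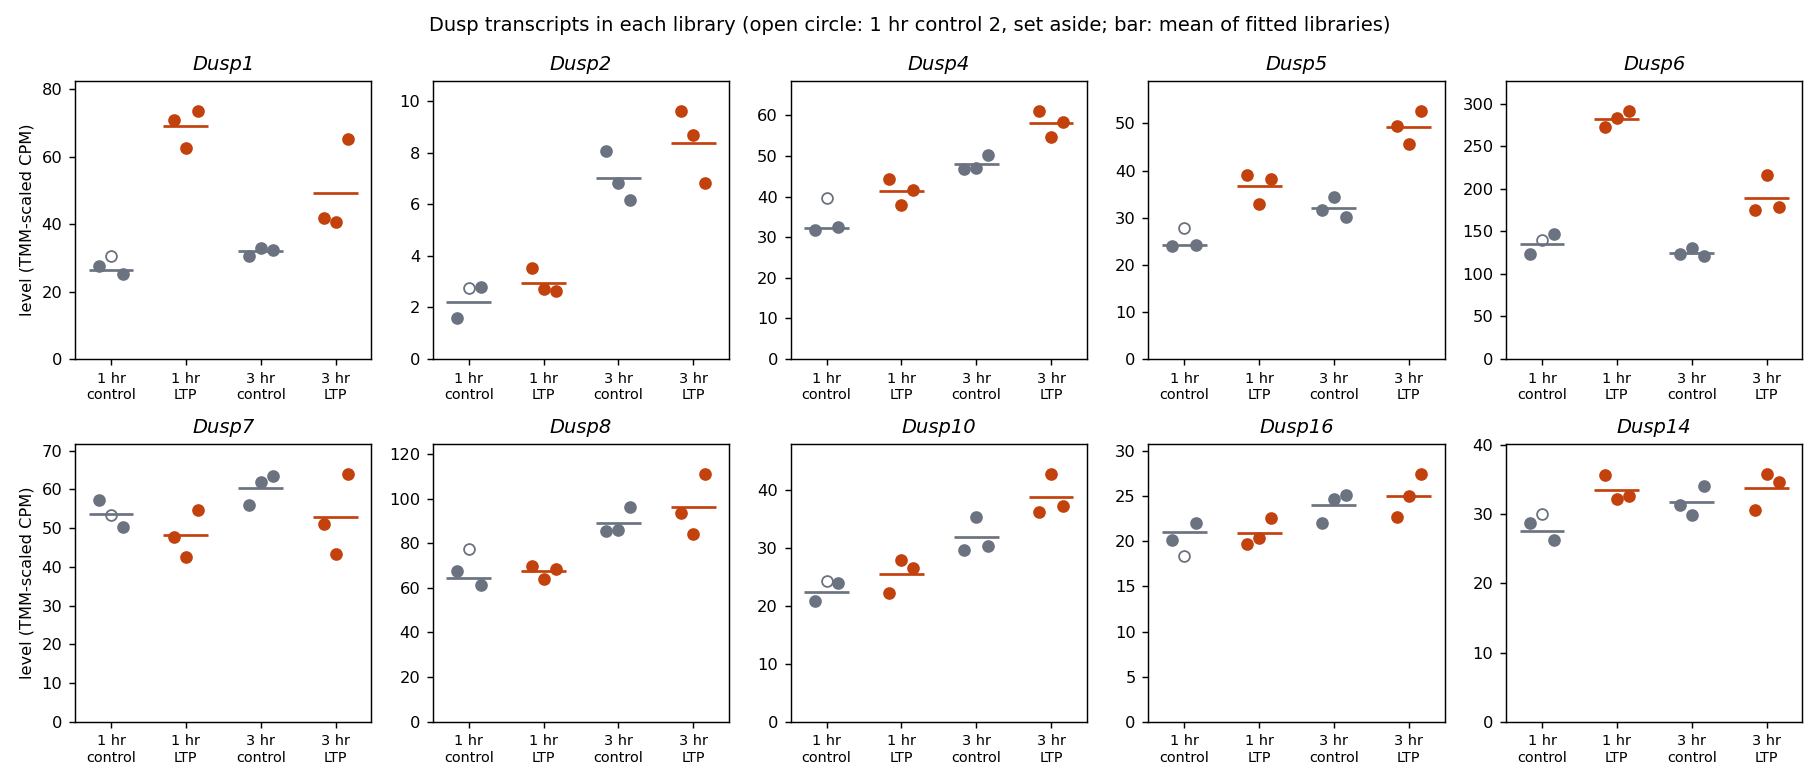
TMM-scaled CPM of each member in every library; filled points are fitted libraries, the open point is 1 hr control replicate 2, and bars are means of the fitted libraries, on axes that start at 0. LTP libraries lie above the fitted controls for Dusp1, Dusp4, Dusp5 and Dusp6 at both times, and the open point for Dusp4 lies among the 1 hr LTP libraries.

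The remaining 6 members were not called at 1 hr. Dusp14 (chromosome 11, 84048041 to 84069261) came nearest, with 26.4 to 30.0 CPM in the 3 controls and 32.2 to 35.6 CPM in LTP slices. Its log2 difference was 0.29 (95% interval 0.11 to 0.48, adjusted p 0.289, edgeR quasi-likelihood test), and with the animal as a block it was 0.32 with an adjusted p of 0.0689, which passes. That fit rests on 2 complete pairs. With the block on all 3 pairs it was 0.25 (adjusted p 0.754) and did not pass. Dusp2 (chromosome 2, 127336159 to 127338376), a nuclear enzyme best known from lymphocytes, was at 1.60 to 2.80 CPM (62 to 134 counts) in the controls and 2.63 to 3.52 CPM in LTP slices. Its log2 difference was 0.43 with a 95% interval of -0.09 to 0.96, and it moved to 0.09 without control replicate 1 and to 0.89 without control replicate 3.

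Dusp7 (chromosome 9, 106368632 to 106375724), the closest relative of Dusp6 and also an ERK phosphatase, had a log2 difference of -0.14 (95% interval -0.36 to 0.07). Its upper bound lies below the Dusp6 difference of 1.07. Among the phosphatases of JNK and p38, Dusp8 (chromosome 7, 142079490 to 142095843) had 0.08 (-0.09 to 0.24), Dusp10 (chromosome 1, 184013302 to 184075636) had 0.20 (-0.03 to 0.43), and Dusp16 (chromosome 6, 134715468 to 134792625) had 0.00 (-0.003, interval -0.21 to 0.20).

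At 3 hr the same comparison asked which transcripts were still, or newly, different. More of the transcriptome was called at this time, 5.07% of 17508 genes higher and 1.53% lower. Again 4 of the 10 members were called higher and 0 lower in the edgeR quasi-likelihood test, and they were the same genes as at 1 hr. At an unadjusted p under 0.05 there were 5 of 10 members, all higher, and 20.2% of all genes. The 1 hr and 3 hr comparisons have no library in common.

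Dusp5 and Dusp6 gave the firmest calls at 3 hr. Dusp5 had 31.7, 34.5 and 30.2 CPM in control replicates 1, 2 and 3 and 49.4, 45.6 and 52.7 CPM in the LTP libraries. The groups did not overlap, and the log2 difference was 0.63 (SE 0.0811, 1.55-fold, adjusted p 0.00625, edgeR quasi-likelihood test). Dusp6 had 124, 130 and 121 CPM in controls and 175, 216 and 178 CPM in LTP slices. Its groups did not overlap either, with LTP replicate 2 the highest, and the log2 difference was 0.62 (0.615, SE 0.0842, 1.53-fold, adjusted p 0.00803). Both kept their calls under all 18 alternatives.

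Dusp1 had 30.5, 33.1 and 32.4 CPM in 3 hr controls and 41.7, 40.7 and 65.3 CPM in LTP replicates 1, 2 and 3. The groups did not overlap, but LTP replicate 3, the library that stood apart above, was far higher than the other two. The log2 difference was 0.64 (0.635, SE 0.166, 1.55-fold, adjusted p 0.0755, edgeR quasi-likelihood test). Leaving out LTP replicate 3 gave 0.37, and leaving out LTP replicate 1 gave 0.74, where the call was lost (adjusted p 0.127).

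Dusp4 had 46.7, 47.1 and 50.2 CPM in 3 hr controls and 61.1, 54.7 and 58.4 CPM in LTP slices, without overlap. The log2 difference was 0.29 (SE 0.069, 1.22-fold, adjusted p 0.0576, edgeR quasi-likelihood test). The calls of Dusp1 and Dusp4 at 3 hr were each lost under 5 of 18 alternatives: a threshold of 0.05, and leaving out any 1 of the 3 controls or LTP replicate 1. Without control replicates 1, 2 and 3 the log2 differences stayed at 0.60, 0.66 and 0.65 for Dusp1 and at 0.27, 0.27 and 0.33 for Dusp4, while the adjusted p rose to between 0.113 and 0.261.

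Of the members not called at 3 hr, Dusp10 came nearest, with 29.7, 35.4 and 30.4 CPM in controls and 36.1, 42.8 and 37.3 CPM in LTP slices. All LTP libraries were higher than all controls, by a narrow gap. The log2 difference was 0.30 (95% interval 0.08 to 0.51, adjusted p 0.126, edgeR quasi-likelihood test). It passed with the animal as a block (adjusted p 0.0375), with DESeq2 (0.0555) and with offsets for GC content and length (0.0405).

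Dusp14, which came near the threshold at 1 hr, was at 29.9 to 34.1 CPM in 3 hr controls and 30.7 to 35.9 CPM in LTP slices, with a log2 difference of 0.10 (95% interval -0.10 to 0.29). Dusp2 had 0.27 (-0.06 to 0.60), and Dusp8 had 0.12 (-0.11 to 0.36). Dusp16 had 0.08 (-0.13 to 0.29). Dusp7 had -0.18 (-0.48 to 0.11). Without LTP replicate 3, Dusp7 was called lower, at -0.35 (adjusted p 0.0624).

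**Figure D3:**
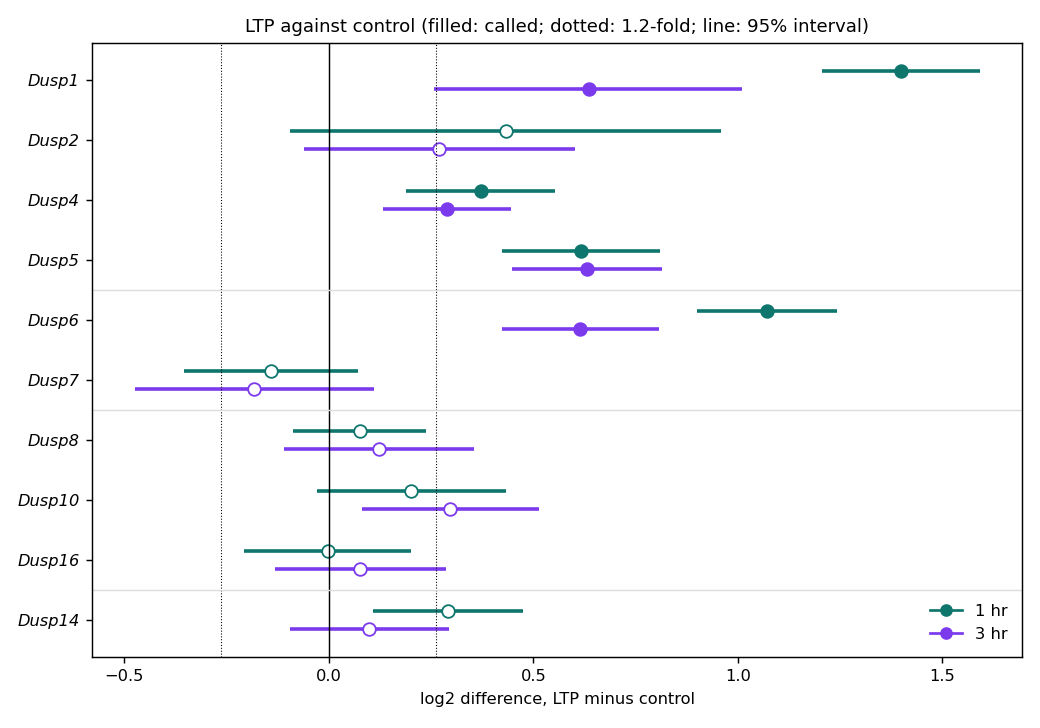
Log2 difference between LTP and control slices for each member at 1 hr and 3 hr, with 95% intervals; filled points were called and dotted lines mark a 1.2-fold change. Dusp1 and Dusp6 lie farther right at 1 hr than at 3 hr, while the points of Dusp5 at both times nearly coincide.

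Within animals the 4 called genes moved as follows, as log2 ratios of LTP over control slices of the same animal. For Dusp6 the 1 hr ratios were 1.14, 1.02 and 0.99 in animals 1, 2 and 3, and the 3 hr ratios 0.50, 0.73 and 0.56. Every 1 hr ratio was above every 3 hr ratio, but how many of all genes were separated in this way was not counted. The interaction of Dusp6, given below, was not called. For Dusp1 the 1 hr ratios were 1.36, 1.04 and 1.55 and the 3 hr ratios 0.45, 0.30 and 1.01, so that animal 3 at 3 hr came close to the lowest 1 hr animal. For Dusp5 they were 0.70, 0.25 and 0.65 at 1 hr and 0.64, 0.40 and 0.80 at 3 hr. Those of Dusp4 were 0.48, -0.06 and 0.36 for the 1 hr animals, and 0.39, 0.22 and 0.22 for the 3 hr animals. The 1 hr values of animal 2 use the control that was set aside, and for Dusp1, Dusp4 and Dusp5 it gave the lowest ratio of that time. Dusp10 was higher in the LTP slices of all 6 pairs, by 0.10 to 0.20 at 1 hr and 0.27 to 0.29 at 3 hr.

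**Figure D4:**
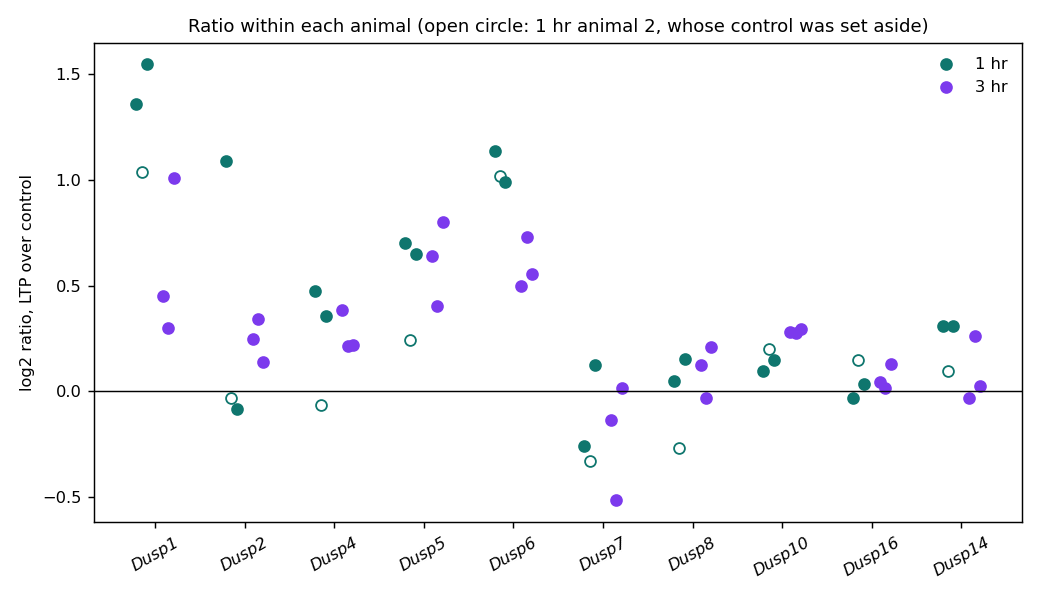
Log2 ratio of LTP over control slices within each animal (3 per time point) for each member; open circles are 1 hr animal 2, whose control was set aside. The 3 hr ratios of Dusp10 lie between 0.27 and 0.29, and those of Dusp1 spread from 0.30 to 1.01.

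Whether the response itself differed between 3 hr and 1 hr was tested as an interaction in 1 model of the 4 groups. Of 18584 genes, 0.0592% were called in either direction, and 0 of the 10 members in the edgeR quasi-likelihood test, with 2 of 10 members (Dusp1 and Dusp6) at an unadjusted p under 0.05, beside 6.59% of all genes. limma-voom called 0 and DESeq2 called 1, Dusp1. The response of Dusp1 was lower at 3 hr by 0.76 on the log2 scale (SE 0.217, difference -0.756, unadjusted p 0.00364, adjusted p 0.451 with edgeR), and DESeq2 gave an adjusted p of 0.0834. Without 3 hr LTP replicate 3 the difference was -1.03 with an adjusted p of 0.0023, which passes. The response of Dusp6 differed by -0.45 (SE 0.125, unadjusted p 0.00297, adjusted p 0.424 with edgeR), and without 3 hr LTP replicate 2 it was -0.57 (adjusted p 0.0405). For Dusp5 the difference was 0.02 (95% interval -0.25 to 0.29) and for Dusp4 it was -0.07 (-0.31 to 0.16).

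The levels at 3 hr and 1 hr were then compared within control slices and within LTP slices. Time after treatment and animal cannot be told apart here if the time points came from different animals, which the labels do not say, and both comparisons come from the same 4-group model. In control slices 16.1% of 18584 genes were called higher at 3 hr and 16.8% lower. Of the members 5 of 10 were higher and 0 lower by the edgeR quasi-likelihood test, and the same count held with DESeq2 and with limma-voom. The same 5 of 10 were the members with an unadjusted p under 0.05, beside 42.1% of all genes. Markers of several cell types moved with time too. The summed level of the microglia list was 142 to 157 CPM in 1 hr controls and 99.6 to 112 CPM in 3 hr controls, with 4 of 5 called lower. That of the endothelial and mural list was 105 to 111 CPM and then 91.1 to 92.8 CPM, with 3 of 6 called lower. The CA1 list went the other way, from 215 to 263 CPM to 292 to 355 CPM, with 2 of 3 called higher, as did the oligodendrocyte list, from 5550 to 6970 CPM to 7270 to 8800 CPM, with 2 of 6 called higher. In LTP slices the microglia list fell too (138 to 154 CPM, then 98 to 102 CPM), and the CA1 list rose (218 to 287 CPM, then 295 to 363 CPM). The endothelial and mural list did not fall there (87.1 to 94.4 CPM, then 88.1 to 105 CPM), with 2 of 6 called higher and 1 lower. The ranges of the oligodendrocyte list overlapped (6720 to 8040 CPM, then 7200 to 8930 CPM). The part of these shifts in the results on time was not tested.

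Dusp2 had the steepest difference with time. It was at 1.60 and 2.80 CPM in the fitted 1 hr controls and at 8.09, 6.84 and 6.19 CPM in 3 hr controls, without overlap, a log2 difference of 1.64 (SE 0.226, 3.12-fold, adjusted p 0.000243, edgeR quasi-likelihood test). In LTP slices it went from 2.63 to 3.52 CPM at 1 hr to 6.83 to 9.63 CPM at 3 hr, a log2 difference of 1.49 (SE 0.19). The interaction, which compares both, was -0.15 for Dusp2 (95% interval -0.78 to 0.48), and neither comparison of LTP with control called it. Dusp4 was higher at 3 hr by 0.55 (SE 0.0823) in control slices and by 0.47 (SE 0.0721) in LTP slices, on the log2 scale.

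Dusp10 was higher at 3 hr by 0.48 (SE 0.118) in control slices and 0.58 (SE 0.104) in LTP slices. Dusp8 was higher by 0.44 (SE 0.104) and 0.49 (0.495, SE 0.0924), and Dusp5 by 0.38 (SE 0.0947) and 0.41 (0.405, SE 0.0826). With offsets for GC content and length the calls of Dusp5 and Dusp8 were lost. Dusp5 had 0.21 and 0.24 and Dusp8 had 0.10 and 0.14 in control and LTP slices. Dusp5 (adjusted p 0.056 and 0.0132, edgeR quasi-likelihood test) and Dusp8 in LTP slices (0.0441) then missed only the 1.2-fold minimum. Dusp8 in control slices (adjusted p 0.207) missed both thresholds. Dusp1 (0.25), Dusp6 (-0.14), Dusp7 (0.14), Dusp14 (0.18) and Dusp16 (0.16) were not called in control slices. Without 3 hr LTP replicate 3, Dusp1 was called (0.27, adjusted p 0.0194 with edgeR).

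In LTP slices 18.6% of all genes were called higher at 3 hr and 17.3% lower, and of the members 5 of 10 were higher and 2 lower. The members called higher were the same as in control slices. Dusp6 fell, from 272 to 292 CPM at 1 hr to 175 to 216 CPM at 3 hr, without overlap (log2 difference -0.59, SE 0.083, adjusted p 0.000186, edgeR quasi-likelihood test). Dusp1 fell by 0.51 on the log2 scale (SE 0.142, adjusted p 0.013), although 3 hr LTP replicate 3, at 65.3 CPM, overlapped the lowest 1 hr library at 62.6 CPM. Dusp16 was close to the threshold at 0.24 (SE 0.0917), under the 1.2-fold minimum, and it was called higher with all libraries or when LTP replicate 3 of 1 hr (0.33) or LTP replicate 1 of 3 hr (0.31) was left out.

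**Figure D5:**
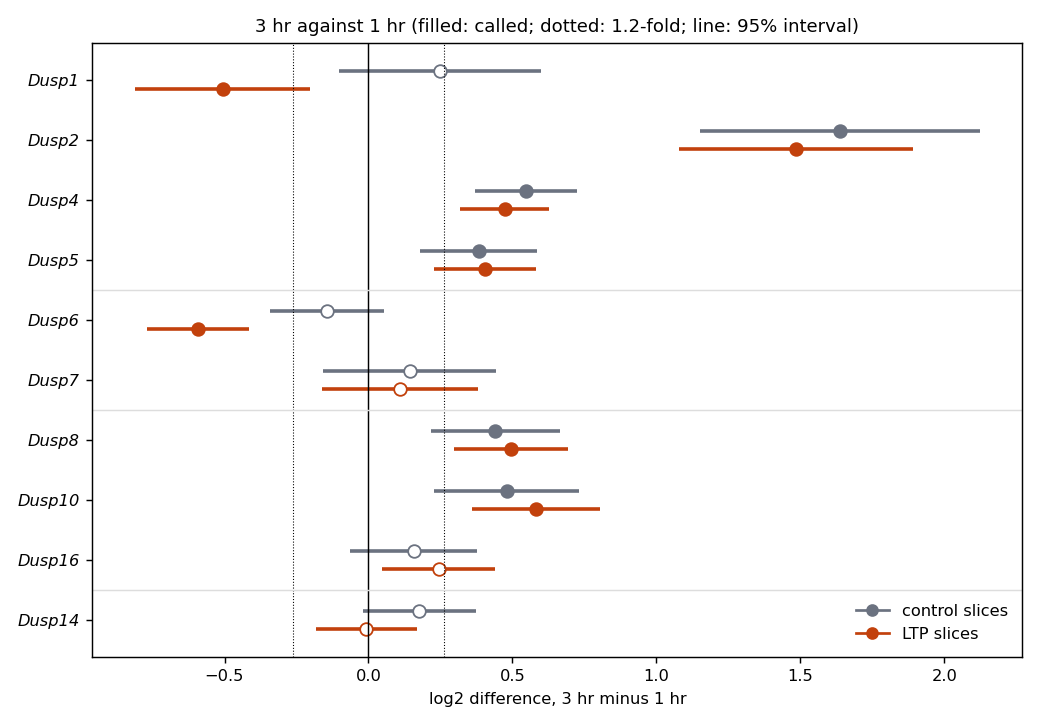
Log2 difference between 3 hr and 1 hr for each member in control slices and in LTP slices, with 95% intervals; filled points were called and dotted lines mark a 1.2-fold change. Dusp2 lies farthest right in both kinds of slice, and Dusp1 and Dusp6 are called lower in LTP slices but not in control slices.

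The other genes of the pathway were read from 7 lists with 73 genes, of which 67 were tested in each comparison of LTP with control. At 1 hr 4 of the 67 were called higher and 0 lower, beside 0.778% of all genes called higher. They were 2 of 8 tested feedback inhibitors of receptor, Ras and ERK signaling (Errfi1, an inhibitor of the EGF receptor, log2 difference 0.82, SE 0.0741, and Spry2, an inhibitor of receptor tyrosine kinase signaling, 0.47, SE 0.0757) and 2 of 11 transcripts known to follow ERK activity, the transcription factors Fos (1.97, SE 0.0773) and Egr1 (1.31, SE 0.0895). None of the 9 MAP kinases, 7 MAP2 kinases, 17 Raf and MAP3 kinases, 2 tyrosine phosphatases with a kinase interaction motif or 13 other dual-specificity phosphatases tested was called by edgeR. Of these 48 genes 2 had an unadjusted p under 0.05, beside 6.71% of all genes. Over the 67 genes DESeq2 called 5, limma-voom 4, and the edgeR fit with the animal as a block (2 complete pairs) 5.

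At 3 hr 8 of the 67 were called higher and 1 lower, beside 5.07% and 1.53% of all genes. The 9 calls fell to 5, 3 and 3 without control replicates 1, 2 and 3, and to 4 without LTP replicate 1, and were 13 and 8 without LTP replicates 2 and 3. Over all genes the 1155 calls fell in the same 4 fits, to 313, 228, 415 and 331, and were 2170 without LTP replicate 2. Of the feedback inhibitors 3 of 8 were called higher: Errfi1 (0.54, SE 0.0897), Spry2 (0.40, SE 0.0617) and Spry4 (0.52, SE 0.126, adjusted p 0.0587). Of the 8, 7 lay above 0. Il17rd was lower but not called (-0.56, SE 0.167, adjusted p 0.105, edgeR quasi-likelihood test). Of the transcripts that follow ERK activity 3 of 11 were called higher: Fos (1.48, SE 0.0828), Egr1 (1.27, 1.265, SE 0.232) and Epha2, an ephrin receptor (0.33, SE 0.0915, adjusted p 0.0873). Of the MAP3 kinases 2 of 17 were higher, Map3k13 (0.68, SE 0.141) and Map3k14 (0.37, 0.365, SE 0.0993, adjusted p 0.0843), and Map3k1 was lower (-0.43, SE 0.101, adjusted p 0.0551). Among the MAP kinases, MAP2 kinases, tyrosine phosphatases and other dual-specificity phosphatases, 0 of 31 were called by edgeR and 2 had an unadjusted p under 0.05, beside 20.2% of all genes. Over the 67 genes DESeq2 called 11, limma-voom 9, and the edgeR fit with the animal as a block 11.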

How the data were processed

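The deposited tables, 1 per time point, held raw read counts per gene, which the authors made from stranded, rRNA-depleted paired-end total RNA libraries aligned with STAR 2.4.1c to GRCm38/mm10 (per the study's methods). Whether counting used strand is not stated in the sources used here. Of 41091 gene IDs, 40217 matched GENCODE M21 without their version suffix. The 874 others stayed in library sizes and tests. Positions are those of GENCODE M21. The exons of Dusp5, Dusp8 and Dusp1 share 22.1%, 1.36% and 0.332% of their bases with AC137853.2, Gm32786 and Ergic1 on the opposite strand.

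Counts were tested with the edgeR 4.0.16 quasi-likelihood test in R 4.3.3 (filterByExpr, TMM, Benjamini-Hochberg over all genes). A call needed an adjusted p under 0.1 and, except for the interaction, a fold change over 1.2, as in the study's methods. The main fits were made per time point, with no term for animal (5 libraries at 1 hr, 6 at 3 hr). The interaction and the comparisons of times used 1 model of 11 libraries. CPM values were TMM-scaled, and log2 ratios within animals used a pseudocount of 0.1 CPM. A level of 3 counts was 0.059 to 0.0808 CPM, below the level of every member in every library. Dusp2, with 62 to 424 counts per library, was the least deeply counted. The fits were run on simulated counts with known changes, except for the comparison of times in LTP slices. A minimum share of recovered changes was required of the other comparisons but not of the interaction. What the interaction could detect is therefore not shown.

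Replicate numbers are animal numbers in the labels, and control and LTP slices came from the same animal, so they pair libraries within a time point. The correlation, across genes, of paired libraries' deviations from their group means for animals 1, 2 and 3 was -0.0149, -0.156 and 0.075 (1 hr) and 0.0385, -0.0275 and 0.218 (3 hr).

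The members, the pathway lists and the tests were chosen with earlier results of these data known. The genes named were all 10 members and, of the pathway lists, the called genes of the LTP comparisons (at most 4 per list with the smallest p). Il17rd, which was not called, was added after its value was seen. Values in every library are given for members called in an LTP comparison, and for Dusp10 after its values were seen. Other members are given by range. The Dusp8 stretch was also chosen after values were seen. Alternatives were DESeq2 1.42.0, limma-voom (limma 3.58.1), other scalings and filters, offsets for GC content and length (of transcripts in GENCODE), an animal block, all libraries, other thresholds and leaving out each library. Calls of single cell type markers between LTP and control are not reported here.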

Additional observations from a re-analysis of the deposited data

How the results depend on the processing

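The calls of Dusp1, Dusp5 and Dusp6 at 1 hr and of Dusp5 and Dusp6 at 3 hr held under every alternative run, and those of Dusp4 at both times and of Dusp1 at 3 hr did not. The cause of these changes was not tested. The number of members called at 3 hr was 4, and 2 at an adjusted p under 0.05. Leaving out 1 library in turn it ranged from 2 to 5. The pathway genes called at 3 hr numbered 9, and 5 at an adjusted p under 0.05, and ranged from 3 to 13 when 1 library was left out. For the interaction, 0 members were called, against 1 with DESeq2 and 2 with no filter on low counts, and 0 to 1 when 1 library was left out. In control slices 5 members were called between 3 hr and 1 hr, and 3 with offsets for GC content and length. With these offsets Dusp5 missed only the 1.2-fold minimum. With a replicate block for the animal, 5 members were called at 1 hr (Dusp14 added, adjusted p 0.0689) and 5 at 3 hr (Dusp10 added, adjusted p 0.0375). The block together with GC and length offsets also added Dusp2 at 3 hr (0.30, adjusted p 0.08), while the block alone changed no other call of a member. These fits at 1 hr rest on 2 complete pairs. With all libraries, Dusp4 at 1 hr was not called with the block (0.27, 0.265, adjusted p 0.808) or without it (0.26), and Dusp14 was not called with it (0.25). Differences near 0 changed sign. With all libraries, those at 1 hr were -0.021 (Dusp8) and 0.058 (Dusp16), with the block also -0.015 and 0.059, and with the block alone 0.011 for Dusp16. Leaving out 1 library gave -0.068 to 0.062 for Dusp16 at 1 hr, -0.004 to 0.216 for Dusp8 and -0.003 to 0.141 for Dusp16 at 3 hr, and -0.222 to 0.022 for Dusp6 between control slices. The interaction of Dusp5 was -0.001 with total counts, -0.006 with at least 10 counts in every library, -0.048 with the block, -0.002 with block and offsets, and -0.047 to 0.074 leaving out 1 library. That of Dusp2 was -0.646 to 0.154 leaving out 1 library. That of Dusp4 was 0.024 with all libraries and 0.019 with the block as well. Dusp7 between control slices was -0.133 with offsets for GC content and length.

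Levels per kilobase of the longest transcript in 3 hr controls were 13.8 for Dusp1, 4.35 for Dusp2, 44.7 for Dusp6, 4.70 for Dusp16 and 20.2 for Dusp14. On this scale Dusp14 moved to the second place, Dusp1 moved above Dusp5 with overlapping ranges, and Dusp16 moved above Dusp2.

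Over all genes, 140 were called at 1 hr, 347 with no filter and 312 with the block and offsets. At 3 hr it was 1155, and 618 at an adjusted p under 0.05. The interaction gave 11, against 80 with DESeq2, 102 with no filter, 22 with offsets, 26 with block and offsets, and 7 with the block on all libraries. Leaving out 1 library gave 69 to 344, 228 to 2170 and 1 to 67.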
